A study of Mus musculus with 3 samples.

Results

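The 10 genes described here encode costimulatory receptors of T cells and ligands of the tumour necrosis factor (TNF) superfamily that T cells can carry. They are Cd28 and Icos of the CD28 family, the TNF receptors Cd27, Tnfrsf4 (OX40), Tnfrsf9 (4-1BB), Tnfrsf18 (GITR) and Tnfrsf8 (CD30), and the ligands Cd40lg (CD40 ligand), Tnfsf8 (CD30 ligand) and Tnfsf4 (OX40 ligand). They form a set by family and function, with no threshold on a measured value in the choice, and are 10 of the 32285 genes in the deposited tables. These genes were chosen with earlier results of these data known. Each was followed through 4 classes of cells, set for every cell by raw counts of a few defining genes. CD8 T cells held at least 1 molecule of Cd3e, at least 2 of Cd8a and Cd8b1 together and none of Cd4. CD4 T cells held at least 1 molecule each of Cd3e and Cd4 and none of Cd8a, Cd8b1 or Foxp3. Regulatory T (Treg) cells held at least 1 molecule each of Cd3e and Foxp3, and B cells at least 2 of Cd79a and none of Cd3e. The T classes were further split by Pdcd1, the gene of the inhibitory receptor PD1, into cells with at least 1 molecule (Pdcd1+) and cells with none (Pdcd1-). None of the 10 genes takes part in these rules.

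Live CD45+ (white blood) cells sorted from pancreatic islets of female wild-type non-obese diabetic (NOD) mice, a strain that develops autoimmune diabetes spontaneously, gave 3 single-cell RNA-seq libraries, called replicates 1, 2 and 3. The study's methods give an age of 15 to 16 weeks, islets pooled from 2 to 3 mice per library and 2 independent experiments, but not which library came from which. There was 1 group and no other strain, age or treatment, so the comparisons are between classes of cells within the same libraries.

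T cells need a signal through the antigen receptor and a costimulatory signal to respond fully. CD28 binds CD80 and CD86 on antigen-presenting cells, and its relative ICOS binds ICOS ligand and helps follicular and regulatory T cells. CD27, OX40, 4-1BB, GITR and CD30 are receptors of the TNF family that recruit TRAF adaptors and turn on NF-kB, which favours survival and expansion of activated cells. Their ligands are trimers on the surface of partner cells, and CD40 ligand on CD4 T cells is the classical helper signal to B cells and dendritic cells through CD40. GITR, OX40 and 4-1BB are also well known on regulatory T cells. In NOD mice, interference with several of these pathways is known to alter the course of diabetes.

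Of the 10 genes, 5 lie on chromosome 4 (GENCODE M21, GRCm38, the assembly also called mm10), where Tnfsf8, Tnfrsf8, Tnfrsf9, Tnfrsf4 and Tnfrsf18 are found. Tnfrsf4 (chr4:156013843-156016612, plus strand) and Tnfrsf18 (chr4:156026164-156028895, plus strand) are neighbours with 9.552 kb between them. Cd28 and Icos lie 204.568 kb apart on chromosome 1, which also holds Tnfsf4, while Cd27 is on chromosome 6 and Cd40lg on chromosome X. All 10 are annotated as protein coding.

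Sequences before 4 start sites are shown because Tnfrsf9 and Tnfsf8 gave some of the largest contrasts below and because Tnfrsf18 is the gene next to Tnfrsf4. RefSeq (GRCm38.p6) held promoter entries for 6 of the 10 genes (Cd27, Tnfrsf4, Tnfrsf9, Tnfrsf18, Tnfsf8 and Tnfrsf8), with 2 start sites for Tnfrsf9. The 250 bases before each start were searched on both strands for TGANTCA (the AP-1 site), GGAAA (the core of NFAT sites) and the NF-kB consensus. Each line gives the bases of that window up to the first base inside it that GENCODE M21 annotates as exon, 5′ to 3′ on the gene's strand, with matches in capitals. Both Tnfrsf9 starts lie inside the gene as GENCODE M21 gives it, 5593 and 13437 bases after its first start.
Tnfrsf9 first start, chr4:150919905-150920154, plus strand: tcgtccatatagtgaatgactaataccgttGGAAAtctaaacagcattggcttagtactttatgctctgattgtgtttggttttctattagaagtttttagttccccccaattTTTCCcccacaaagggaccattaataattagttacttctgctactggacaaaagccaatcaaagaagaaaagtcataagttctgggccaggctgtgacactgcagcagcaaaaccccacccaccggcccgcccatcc
Tnfrsf9 second start, chr4:150927749-150927917, plus strand: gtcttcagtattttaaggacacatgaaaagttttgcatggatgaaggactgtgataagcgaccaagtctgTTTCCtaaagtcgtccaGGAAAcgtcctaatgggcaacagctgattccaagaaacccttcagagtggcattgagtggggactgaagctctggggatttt
Tnfrsf18, chr4:156026072-156026163, plus strand: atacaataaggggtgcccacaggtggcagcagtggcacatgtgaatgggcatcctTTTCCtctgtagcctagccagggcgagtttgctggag
Tnfsf8, chr4:63861348-63861534, minus strand: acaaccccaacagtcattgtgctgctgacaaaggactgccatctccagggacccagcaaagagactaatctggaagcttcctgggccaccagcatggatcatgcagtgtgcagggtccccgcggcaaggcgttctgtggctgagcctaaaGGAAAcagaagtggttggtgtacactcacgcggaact
The full windows of 250 bases held 2 and 3 NFAT core matches for the first and second start of Tnfrsf9, 2 for Tnfrsf18 and 1 for Tnfsf8. The part of the second Tnfrsf9 window inside an annotated exon, not printed, held 1 AP-1 match and 2 overlapping NF-kB matches, and the other 3 windows held neither. The window of Tnfrsf8 held 1 AP-1 and 1 NF-kB match. Over 32851 promoter entries of 250 bases, 6.75% held an AP-1 match, 55.6% an NFAT core match and 3.9% an NF-kB match. These are matches of letters and not binding sites.

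The tables list 5844, 9537 and 11566 cells with 33851381, 74775394 and 80806452 unique molecular identifiers (UMIs, counts of single RNA molecules) in replicates 1, 2 and 3. Cells with at least 1000 UMIs and under 10% mitochondrial UMIs were kept (5727, 9199 and 11216 cells). The classes held 574, 1189 and 1436 CD8 T cells, 915, 2116 and 2827 CD4 T cells, 312, 591 and 768 Treg cells and 1816, 1789 and 1331 B cells. Replicate 1 was the shallowest library, with a median of 4682 UMIs in Treg cells against 10106 and 9166.5 in replicates 2 and 3. Markers outside the rules followed the class names, except that Zbtb7b overlapped between CD4 T and B cells. The 5 T-cell genes summed to 2074 to 3253 CPM (UMIs of a gene scaled to a fixed total of UMIs per sum) in the T classes and to 92.5 to 116 CPM in B cells. The Treg genes Il2ra, Ikzf2, Ctla4 and Capg summed to 1480 to 1952 CPM in Treg and 407 to 719 CPM in CD4 T cells, and Nkg7 with Ccl5 to 5436 to 5998 CPM in CD8 T and 776 to 1315 CPM in CD4 T cells. Zbtb7b, a factor of the CD4 lineage, was at 3.07 to 5.06 CPM in CD4 T, 0.466 to 0.722 CPM in CD8 T and 2.42 to 3.5 CPM in B cells. RNA of other cells was present in the T classes. The 5 B-cell genes summed to 407 to 1058 CPM in CD8 T, 1152 to 1279 CPM in CD4 T, 1490 to 2491 CPM in Treg and 8165 to 8925 CPM in B cells, and no defining B-cell gene was at 0. In the T classes the 5 macrophage genes summed to 3.11 to 128 CPM, the 5 dendritic cell genes to 7.27 to 38.3 CPM, the 3 NK genes to 1.74 to 84.0 CPM, the 2 gamma-delta T-cell genes to 2.61 to 16.1 CPM, the 4 islet endocrine genes to 12.4 to 94.3 CPM and the 3 plasma cell genes to 131 to 876 CPM, and every gene of every list had UMIs in each class. The part of this RNA in the results was not tested, except that the contrasts were also fitted without T cells carrying a UMI of Cd79a, Ms4a1, Lyz2 or C1qa. Pairs of libraries shared 12, 18 and 29 cell barcodes. Between 7.66% and 17.0% of the cells of a T class, and 2.18% to 3.80% of B cells, were among those with the highest doublet scores, and the contrasts were also fitted without them. The 59 cells that met both the CD8 T and the Treg rule were kept with Treg.

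Treg cells held the most Tnfrsf9, Tnfrsf4, Tnfrsf18 and Icos, CD4 T cells the most Tnfsf8 and Cd40lg, and CD8 T cells the most Tnfsf4, in each of the 3 libraries. Cd28 and Cd27 differed least between the T classes, and Tnfrsf8 was barely detected. For each gene, UMIs were summed over the cells of a class in a library, and the sums were given as CPM and compared between classes by the quasi-likelihood test of edgeR, blocked by library. The Benjamini-Hochberg adjustment covered all 12073 genes tested. Fold changes below are on the log2 scale with their standard error. The p-values rest on how the differences between classes vary over these 3 libraries only. In CD4 T cells, 5 of the 10 genes were higher than in CD8 T cells and 2 were lower, where 7.7% and 6.44% of all genes tested were called higher and lower. In Treg cells, 3 of the 10 were higher and 3 lower than in CD4 T cells (4.23% and 3.45% of all genes), and 6 were higher and 1 lower than in CD8 T cells (11.1% and 8.38% of all genes). In B cells, 9 of the 10 were lower than the mean of the T classes and none was higher (31.1% and 30.6% of all genes). Without replicate 1, 9, 8, 7 and 9 of the 10 genes were called in these 4 contrasts, in either direction, where 17.8%, 12.7%, 24.8% and 63.6% of all genes were.

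**Figure D1:**
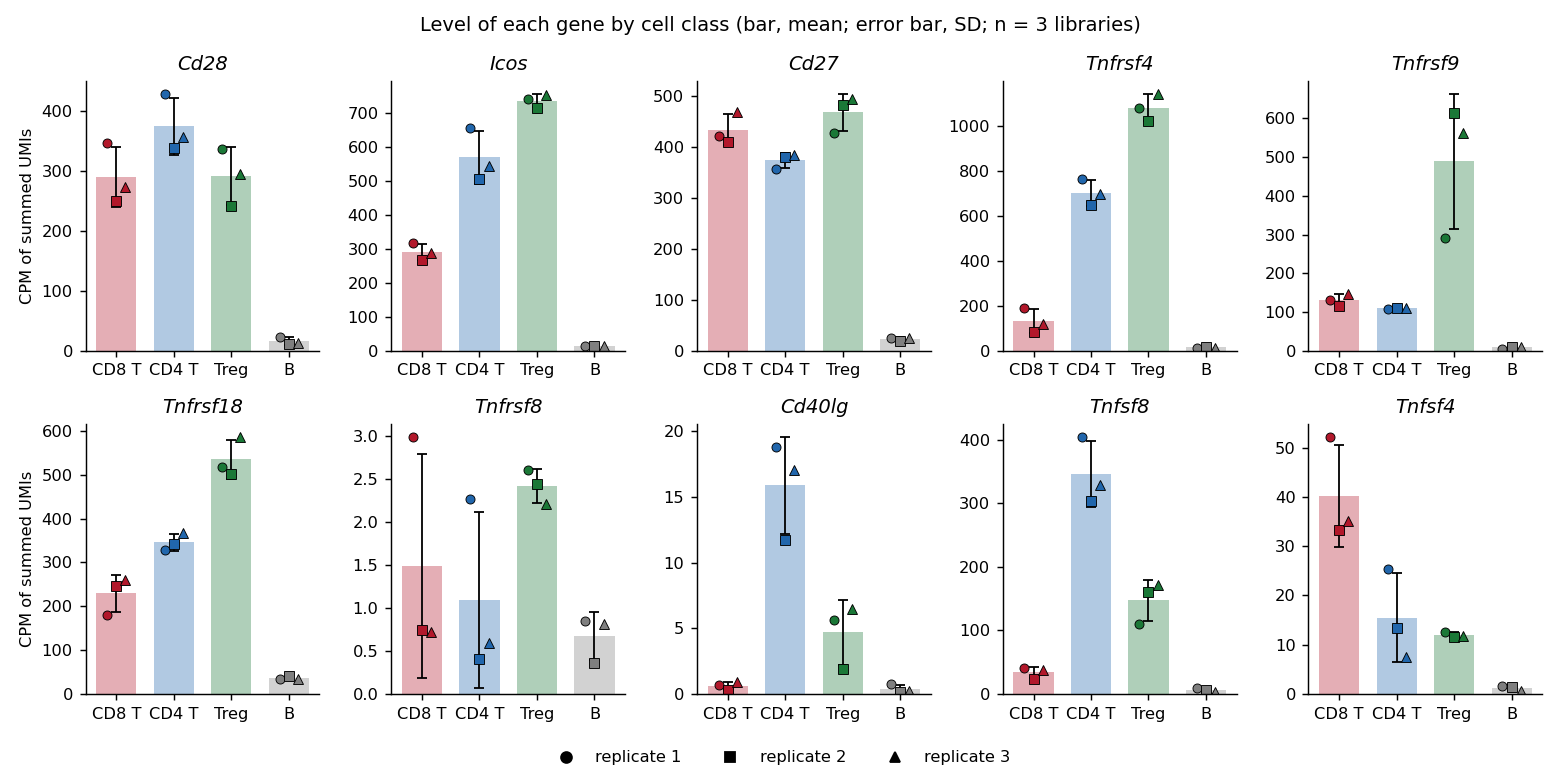
Level of each gene in 4 cell classes, in CPM of the UMIs summed over the cells of a class (bars, mean; error bars, SD; points, the 3 libraries), with a separate scale for each gene. Tnfrsf4, Tnfrsf18, Tnfrsf9 and Icos were highest in Treg cells, Tnfsf8 and Cd40lg in CD4 T cells and Tnfsf4 in CD8 T cells, and B cells were near the base line except for Tnfrsf8.

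**Figure D2:**
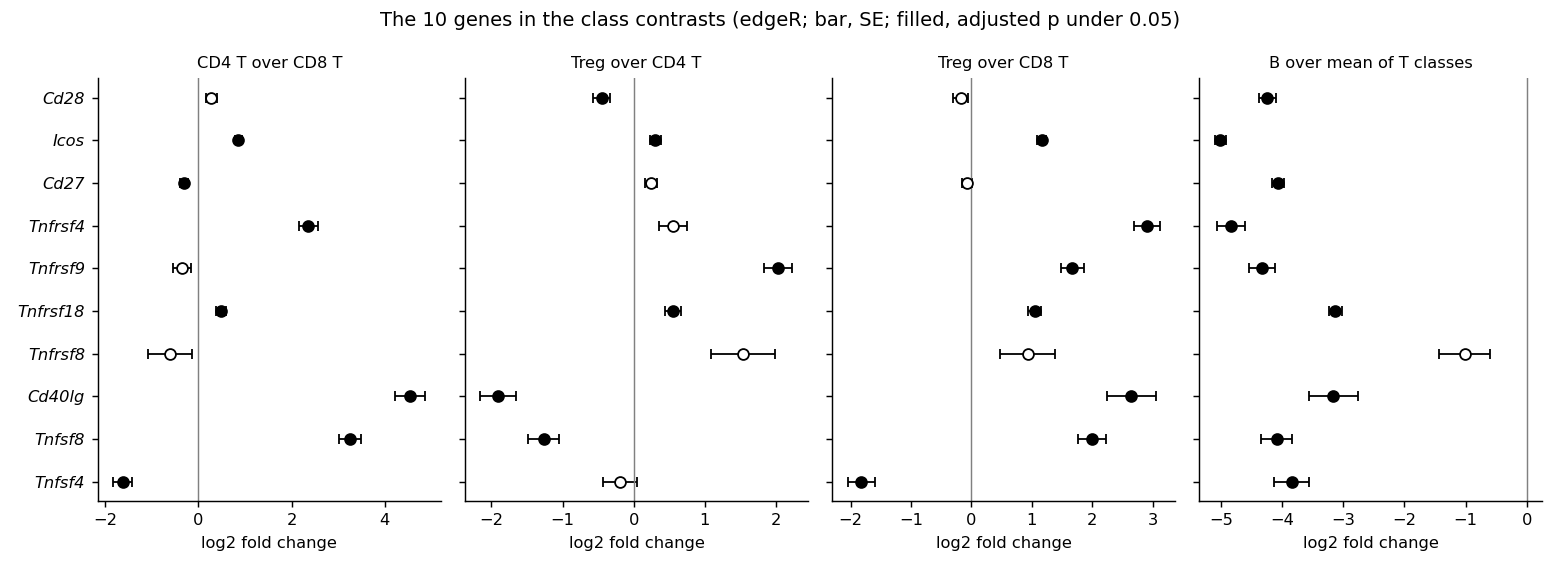
Log2 fold changes of the 10 genes between classes (points, edgeR estimate from 3 libraries; bars, SE; filled points, adjusted p under 0.05). Tnfsf8, Cd40lg and Tnfrsf4 lay farthest right for CD4 T over CD8 T cells, and the B-cell contrast was below 0 for every gene.

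Icos, the inducible receptor of the CD28 family, was lowest in CD8 T, intermediate in CD4 T and highest in Treg cells, while Cd28 itself was spread over the 3 T classes within a narrower range. Icos was at 316, 267 and 289 CPM in CD8 T cells of replicates 1, 2 and 3, at 656, 506 and 545 CPM in CD4 T cells and at 741, 714 and 753 CPM in Treg cells. The 3 classes did not overlap. Icos was higher in CD4 T than in CD8 T cells by 0.86 ± 0.08 (edgeR adjusted p = 3.6e-05) and in Treg than in CD8 T cells by 1.16 ± 0.08 (edgeR adjusted p = 2.67e-06). The step from CD4 T to Treg cells was 0.30 ± 0.08 (edgeR adjusted p = 0.0413), and its adjusted p was 0.434 without replicate 2, 0.366 without replicate 3 and 0.114 without cells with high doublet scores.

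Cd28, the main costimulatory receptor of naive T cells, was at 347, 250.3 and 274 CPM in CD8 T cells, 429, 339 and 357 CPM in CD4 T cells and 337, 241 and 295 CPM in Treg cells. The CD8 T range overlapped with both others, and replicate 1 was the highest library in each class. Within each library Cd28 was highest in CD4 T cells. It was lower in Treg than in CD4 T cells with a log2 fold change of -0.45 ± 0.12 (edgeR adjusted p = 0.0419), a call that was lost without replicate 2 (adjusted p = 0.412), without replicate 3 (adjusted p = 0.195), without cells with high doublet scores (adjusted p = 0.0788), with the study's cell filter (adjusted p = 0.247) or without T cells carrying B-cell or macrophage UMIs (adjusted p = 0.0866). The difference between CD4 T and CD8 T cells, 0.27 ± 0.12 (edgeR adjusted p = 0.17), did not pass the test and passed it without replicate 1 (adjusted p = 0.0182) and with the B-cell sums left out (adjusted p = 0.0107).

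Cd27, a TNF receptor of naive and memory T cells, differed little between the T classes. It was at 421, 409.7 and 467 CPM in CD8 T cells, 356, 379.8 and 384 CPM in CD4 T cells and 426, 481 and 494 CPM in Treg cells. All CD4 T values were below those of the other 2 classes, which overlapped each other. Cd27 was lower in CD4 T than in CD8 T cells with a log2 fold change of -0.32 ± 0.08 (edgeR adjusted p = 0.0271), and the adjusted p was 0.103 without replicate 2, 0.309 without replicate 3, 0.146 without T cells carrying B-cell or macrophage UMIs, 0.397 with the study's cell filter and 0.554 with cells thinned to 2000 UMIs before the classes were set. The difference of Treg from CD4 T cells, 0.24 ± 0.09 (edgeR adjusted p = 0.115), did not pass the test, and passed it in 5 of the alternative fits, among them DESeq2 (adjusted p = 0.0397).

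The inducible TNF receptors Tnfrsf4, Tnfrsf18 and Tnfrsf9 had their highest level in Treg cells in every library, but differed in where CD4 T and CD8 T cells stood. Tnfrsf4, which encodes OX40, a survival receptor of activated CD4 T cells, was at 189, 84.1 and 120.4 CPM in CD8 T, 762, 646 and 695 CPM in CD4 T and 1077, 1023 and 1142 CPM in Treg cells. The 3 classes did not overlap, and the CD8 T level was highest in replicate 1. Tnfrsf4 was higher in CD4 T than in CD8 T cells by 2.36 ± 0.20 (edgeR adjusted p = 1.93e-05) and in Treg than in CD8 T cells by 2.91 ± 0.21 (edgeR adjusted p = 3.13e-06). The step from CD4 T to Treg cells was in the same direction in all 3 libraries, with log2 ratios of 0.50, 0.66 and 0.72, but did not pass the test at 0.55 ± 0.19 (edgeR adjusted p = 0.115). It passed without replicate 1 (adjusted p = 0.0449), with the study's cell filter (adjusted p = 9.3e-05), with the B-cell sums left out of the fit (adjusted p = 0.0218) and without T cells carrying B-cell or macrophage UMIs (adjusted p = 0.0468).

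Tnfrsf18, the gene of GITR and the neighbour of Tnfrsf4, showed the same order of classes, with a smaller step between CD8 T and CD4 T cells. It was at 181, 247 and 260.0 CPM in CD8 T, 329, 341 and 366 CPM in CD4 T and 518, 503 and 586 CPM in Treg cells, and the classes did not overlap. The level was higher in CD4 T than in CD8 T cells by 0.49 ± 0.11 (edgeR adjusted p = 0.0108) and in Treg than in CD4 T cells by 0.55 ± 0.11 (edgeR adjusted p = 0.0107). Neither of these calls passed without replicate 2 or without replicate 3. The adjusted p was then 0.0542 and 0.0819 for the first, and 0.0955 and 0.139 for the second. Over CD8 T cells, Treg cells were higher by 1.05 ± 0.11 (edgeR adjusted p = 4.97e-05), and this call held under every alternative fitted.

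Tnfrsf9, the gene of 4-1BB, an activation-induced receptor of CD8 T and Treg cells, separated Treg cells from both other T classes. It was at 130.5, 115 and 146 CPM in CD8 T, 108, 110.1 and 111 CPM in CD4 T and 290.0, 615 and 562 CPM in Treg cells. All Treg values were above those of the other classes, and the Treg value of replicate 1 was the lowest of the 3. Tnfrsf9 was higher in Treg than in CD4 T cells by 2.03 ± 0.20 (edgeR adjusted p = 9.32e-05) and than in CD8 T cells by 1.67 ± 0.20 (edgeR adjusted p = 0.0001), and these calls held under every alternative fitted. CD4 T cells were below CD8 T cells in each library, but the difference did not pass the test (adjusted p = 0.264) and passed it without replicate 1 (adjusted p = 0.0407).

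Tnfrsf8, the gene of CD30, was near the limit of detection. Its sums held 13, 8 and 8 UMIs in CD8 T cells, 13, 7 and 12 in CD4 T cells, 6, 18 and 19 in Treg cells and 9, 5 and 8 in B cells of the 3 libraries. This gave 2.61, 2.44 and 2.2 CPM in Treg cells and 2.27, 0.411 and 0.594 CPM in CD4 T cells. The ranges of the T classes overlapped. The difference of Treg from CD4 T cells was 1.54 ± 0.45 (edgeR adjusted p = 0.0627), and it passed in 5 alternative fits, with an adjusted p of 0.0185 without replicate 1. No T-class contrast of Tnfrsf8 passed the test, and the difference between B and T cells, -1.02 ± 0.41 (edgeR adjusted p = 0.0506), did not pass it either.

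The 3 ligands fell into different classes. Cd40lg and Tnfsf8 were highest in CD4 T cells, and Tnfsf4 was highest in CD8 T cells. Cd40lg, the helper ligand for CD40, was at 18.8, 11.7 and 17.1 CPM in CD4 T cells, 5.65, 1.9 and 6.5 CPM in Treg cells and 0.689, 0.28 and 0.902 CPM in CD8 T cells. The 3 classes did not overlap, but the level was low throughout and the CD8 T sums rest on 16 UMIs in all. Cd40lg was higher in CD4 T than in CD8 T cells by 4.54 ± 0.33 (edgeR adjusted p = 6.13e-06) and lower in Treg than in CD4 T cells with a log2 fold change of -1.90 ± 0.25 (edgeR adjusted p = 0.000905). Treg cells were above CD8 T cells by 2.64 ± 0.41 (edgeR adjusted p = 0.000711). With cells thinned to 2000 UMIs before the classes were set, the adjusted p was 0.124 for Treg over CD4 T and 0.259 for Treg over CD8 T cells. The call of Treg over CD4 T cells was also lost without the block by library.

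Tnfsf8, the ligand of CD30, was at 404, 304 and 328 CPM in CD4 T cells, 110.4, 159.7 and 171 CPM in Treg cells and 40.4, 23.8 and 37.4 CPM in CD8 T cells. The 3 classes did not overlap. It was higher in CD4 T than in CD8 T cells by 3.26 ± 0.24 (edgeR adjusted p = 6.5e-06) and in Treg than in CD8 T cells by 2.00 ± 0.24 (edgeR adjusted p = 0.000106). It was lower in Treg than in CD4 T cells with a log2 fold change of -1.26 ± 0.22 (edgeR adjusted p = 0.00473), where the adjusted p was 0.0509 without replicate 2 and 0.183 with the study's own cell filter, which removes cells of 6000 UMIs or more. In replicates 1, 2 and 3 that filter kept 199, 136 and 208 Treg, 609, 696 and 1406 CD4 T and 336, 209 and 529 CD8 T cells. The call of Tnfsf8 between Treg and CD4 T cells was also lost without the block by library.

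Tnfsf4, the ligand of OX40, is best known on antigen-presenting cells and can be induced on T cells. It was at 52.2, 33.4 and 35.1 CPM in CD8 T cells, 25.5, 13.5 and 7.58 CPM in CD4 T cells and 12.6, 11.7 and 11.8 CPM in Treg cells. All CD8 T values were above those of the other T classes, which overlapped. Tnfsf4 was lower in CD4 T than in CD8 T cells with a log2 fold change of -1.63 ± 0.21 (edgeR adjusted p = 0.000303) and lower in Treg than in CD8 T cells with a log2 fold change of -1.82 ± 0.23 (edgeR adjusted p = 0.000162), and both calls held under every alternative fitted. Between Treg and CD4 T cells the log2 ratios of CPM were -0.96, -0.19 and 0.58 in the 3 libraries. CD8 T cells were the class with the most Tnfsf4 and the least Tnfrsf4 among the T classes in every library.

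In B cells Tnfrsf18 was at 34.4, 39.8 and 34.7 CPM, Cd27 at 24.5, 19.6 and 25.2 CPM, and no other of the 10 genes exceeded 23.2 CPM in any library. The log2 difference of B cells from the mean of the T classes ran from -5.01 ± 0.09 for Icos to -3.13 ± 0.11 for Tnfrsf18 among the 9 called genes (edgeR adjusted p from 9.99e-12 to 2.96e-05). With the study's cell filter the call of Cd40lg was lost (adjusted p = 0.0723).

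Shares of cells with at least 1 UMI were computed after each cell was thinned to 2000 UMIs, since shares grow with depth. Among Treg cells, 77% ± 4.02 (SD, n = 3 libraries) held Tnfrsf4, 69.5% ± 1.71 Icos, 63.9% ± 2.03 Tnfrsf18 and 50.3% ± 6.74 Tnfrsf9. Among CD4 T cells, 51.4% ± 8.46 held Tnfrsf4, 12.8% ± 0.874 Tnfrsf9, 27.1% ± 6.04 Tnfsf8 and 3.35% ± 0.863 Cd40lg. Among CD8 T cells, 11.8% ± 3.61 held Tnfrsf4, 16.1% ± 1.13 Tnfrsf9, 5.07% ± 1.18 Tnfsf8 and 5.94% ± 1.23 Tnfsf4. Tnfrsf4 was thus found in most Treg cells and in a minor share of CD8 T cells. Thinning left out 20 Treg, 43 CD4 T, 2 CD8 T and 26 B cells with fewer UMIs.

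B cells, which should lack most of these genes, give the level to read the shares against, at median depths of 4309, 6784 and 5899 UMIs against 4549, 6423 and 5520 in CD4 T, 5370.5, 7594 and 6468 in CD8 T and 4682, 10106 and 9166.5 in Treg cells. The thinned share in B cells was 6.8% ± 0.19 for Tnfrsf18 and 3.87% ± 0.376 for Cd27, and between 0.0436% and 1.87% for the other 8 genes. These UMIs were not scattered evenly over B cells. Of thinned B cells with Tnfsf8, 53.3%, 38.5% and 14.3% in the 3 libraries also held Tnfrsf4, against 1.29%, 1.58% and 1.97% of those without Tnfsf8, on 8, 5 and 1 cells with both. Without cells with high doublet scores the thinned share of B cells with Cd28 was 1.18% ± 0.437, beside 1.86% ± 0.806 with them. The B-cell share can thus hold RNA of T cells in the same barcode as well as free RNA, and the parts were not tested. The share of CD8 T cells with Cd40lg, 0.0815% ± 0.088, was close to that in B cells, 0.0436% ± 0.039, and was not read as expression. The same holds for Tnfrsf8 in CD8 T cells, 0.114% ± 0.0991 against 0.093% ± 0.0851 in B cells. No thinned CD8 T cell of replicate 3 held Tnfrsf8 (0 of 1436 cells, which allows up to 0.209%). Without thinning, 93.7% ± 0.674 of Treg, 67.5% ± 7.49 of CD4 T, 23.1% ± 4.78 of CD8 T and 5.01% ± 1.27 of B cells held Tnfrsf4, and 72.7% ± 7.79 of Treg, 33.6% ± 0.376 of CD8 T, 26.5% ± 1.4 of CD4 T and 3.42% ± 1.1 of B cells held Tnfrsf9. The unthinned shares of Treg cells were 90.1% ± 1.52 for Icos and 92% ± 4.45 for Tnfrsf18, those of CD4 T cells 39.7% ± 5.56 for Tnfsf8 and 8.67% ± 0.977 for Cd40lg, and those of CD8 T cells 11.1% ± 1.26 for Tnfsf8, 14% ± 3.57 for Tnfsf4, 0.386% ± 0.156 for Cd40lg and 1.02% ± 0.776 for Tnfrsf8. An exact sign-flip test over 3 libraries cannot give a two-sided p under 0.25, so no share difference was tested further.

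The 4 classes do not hold all RNA of these genes. Cells with Cd3e that met none of the T-class rules, for example for lack of a Cd4 or Cd8 UMI, held 28.9% to 29.3% of the UMIs of Cd28 and 16.9% to 24% of those of Tnfrsf4 across the libraries. CD4 T cells held 56.7% to 60.0% of all Tnfsf8 UMIs and 47.4% to 50.1% of all Cd40lg UMIs. Treg cells, a small class, held 23.9% to 43.6% of the Tnfrsf9 UMIs and 22.6% to 31.1% of the Tnfrsf4 UMIs, with the lowest value in replicate 1 for both. CD8 T cells held 37.5% to 44.4% of the Tnfsf4 UMIs. Cells that were neither B cells nor positive for Cd3e held 7.77% to 9.5% of the Cd27 UMIs and 4.51% to 4.91% of the Tnfsf4 UMIs.

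**Figure D3:**
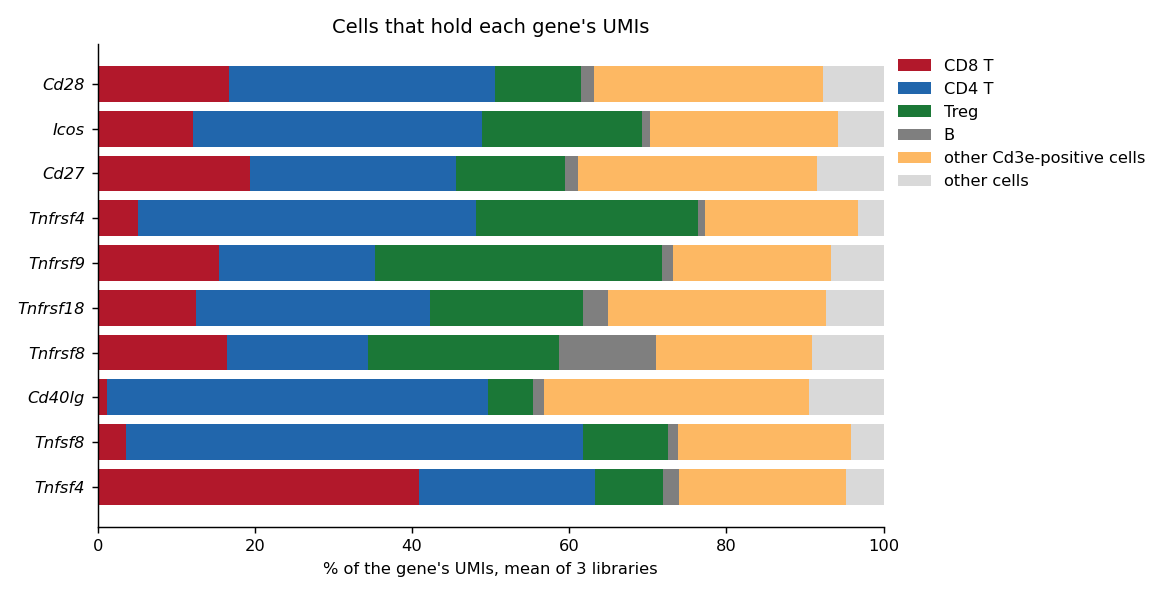
Percent of each gene's UMIs found in the 4 classes, in other Cd3e-positive cells and in all other kept cells (bars, mean of 3 libraries). The CD4 T part is the largest for Tnfsf8 and Cd40lg, and also for Cd28, Icos, Tnfrsf4 and Tnfrsf18. The Treg part is the largest for Tnfrsf9 and the CD8 T part for Tnfsf4. In replicate 1 alone, other Cd3e-positive cells held 24.6% of the Tnfrsf9 UMIs and Treg cells 23.9%.

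The split by Pdcd1 asked whether costimulatory genes differ between T cells with and without RNA of the inhibitory receptor PD1, a marker of activated and chronically stimulated cells. The sums of the 6 T subclasses of 3 libraries were fitted together over 10739 genes, and all 10 genes passed the filter on low counts. In CD8 T cells, 5 of the 10 genes were higher in Pdcd1+ cells and none was lower, where 6.34% and 7.49% of all genes were called higher and lower. In CD4 T cells, 3 were higher and none lower (7.63% and 8.13% of all genes). In Treg cells none of the 10 was called by edgeR or DESeq2, where edgeR called 0.587% of all genes, and 2 had an unadjusted p under 0.05. Of all genes, 1064 of 10739 had an unadjusted p under 0.05 in Treg cells. Without replicate 1, where the Pdcd1+ to Pdcd1- ratios of 7 genes (Cd28, Icos, Cd27, Tnfrsf4, Tnfrsf9, Tnfsf8 and Tnfsf4) were the lowest of the 3 libraries in every class, 7, 6 and 2 of the 10 genes were called in CD8 T, CD4 T and Treg cells, in either direction, where 15.6%, 20.1% and 2.05% of all genes were.

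Depth and some of the marker lists, among them the CD8 T markers Nkg7 and Ccl5, also moved with the split. Pdcd1+ cells had more UMIs, with medians of 5865, 8656.5 and 7037 against 4896, 7309 and 6240 in CD8 T, of 4720, 7330.5 and 6459.5 against 4519, 6133.5 and 5228 in CD4 T, and of 5416.5, 11878 and 10949 against 4275.5, 8040 and 7384.5 in Treg cells. The share of cells with high doublet scores was 10.1% to 14.2% in Pdcd1+ and 5.68% to 9.48% in Pdcd1- CD8 T cells, 10.6% to 12.8% and 7.74% to 11.2% in CD4 T, and 18.1% to 21.3% and 12.1% to 14.2% in Treg cells. In CD8 T cells 4 of the marker lists did not overlap between the groups. Nkg7 with Ccl5 summed to 6799 to 9781 CPM in Pdcd1+ and 3368 to 4169 CPM in Pdcd1- cells, the 3 NK genes to 95.3 to 162 CPM and 27.0 to 47.8 CPM, the 2 gamma-delta T-cell genes to 11.7 to 22.9 CPM and 2.98 to 10.7 CPM, and the 4 Treg genes to 434 to 597 CPM and 155 to 387 CPM. In CD4 T cells 4 lists did not overlap either. Nkg7 with Ccl5 summed to 1410 to 2680 CPM in Pdcd1+ and 341 to 842 CPM in Pdcd1- cells, the 3 plasma cell genes to 435 to 987 CPM and 103 to 320 CPM, the 3 NK genes to 8.99 to 20.7 CPM and 2.34 to 4.1 CPM, and the 2 gamma-delta T-cell genes to 7.69 to 20.97 CPM and 4.65 to 7.6 CPM. In Treg cells this held for Nkg7 with Ccl5, at 952 to 1138 CPM and 587 to 633 CPM. The 4 Treg genes overlapped only narrowly in CD4 T cells. They summed to 648 to 832 CPM in Pdcd1+ (median 677 CPM) and 241 to 654 CPM in Pdcd1- CD4 T cells (median 270 CPM). The 5 B-cell genes overlapped between the groups, at 1071 to 1601 CPM in Pdcd1+ and 957 to 1198 CPM in Pdcd1- CD4 T cells and at 1448 to 3246 CPM and 1215 to 2128 CPM in Treg cells. The part of these in the differences below was not tested beyond some of the alternative fits. These were the fits with thinned cells, without cells with high doublet scores and without T cells carrying B-cell or macrophage UMIs. The fit with thinned cells set the classes again after thinning to 2000 UMIs, so the cells compared were not the same. It held 90, 69 and 96 Pdcd1+ CD8 T cells against 247, 352 and 467 in the main fit. For Pdcd1- CD8 T cells it held 139, 173 and 295 against 327, 837 and 969. It tested 4617 genes in place of 10739.

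**Figure D4:**
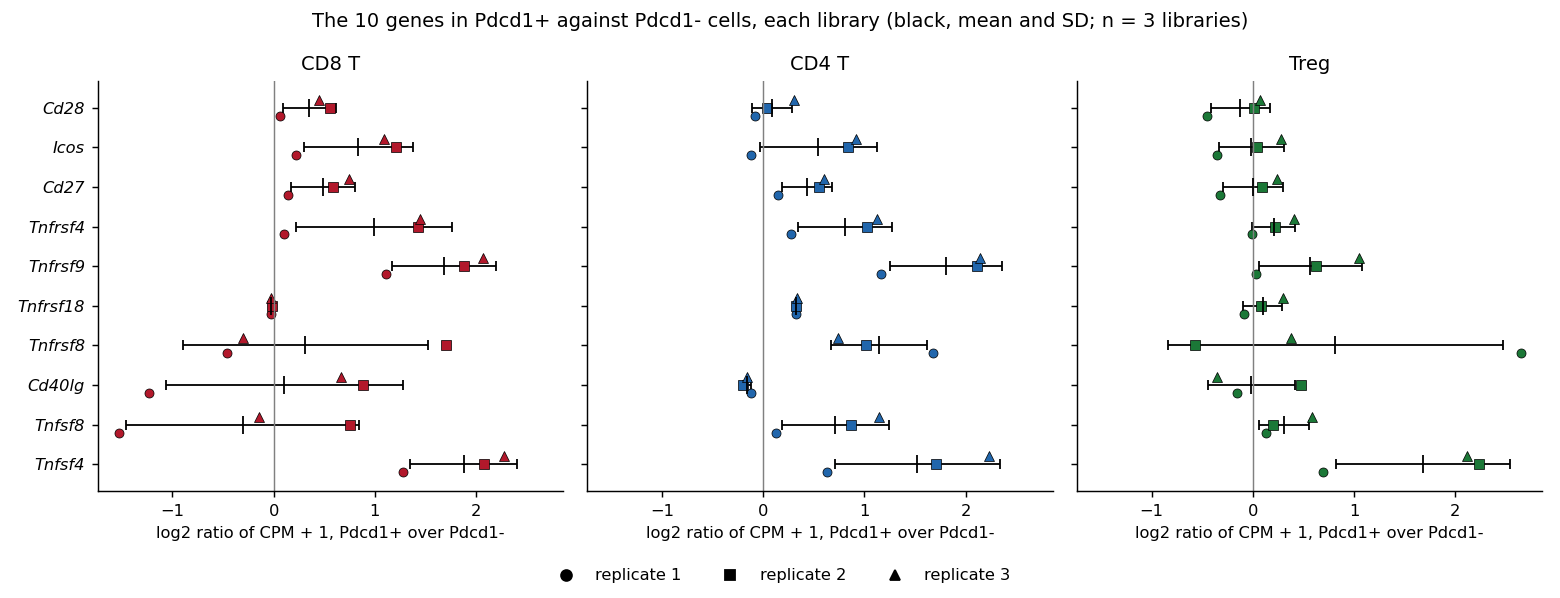
Log2 ratio of CPM + 1 in Pdcd1+ over Pdcd1- cells for each gene, in CD8 T, CD4 T and Treg cells (points, the 3 libraries; black, mean and SD). Tnfrsf9 and Tnfsf4 lie right of 0 in every library and class, and the points of replicate 1 lie left of the other libraries for Cd28, Icos, Cd27, Tnfrsf4, Tnfrsf9, Tnfsf8 and Tnfsf4 in all 3 classes.

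In CD8 T cells Tnfsf4 and Tnfrsf9 rose most among the 5 called genes. Tnfsf4 was at 30.2, 15.7 and 14 CPM in Pdcd1- and 74.9, 69.3 and 72 CPM in Pdcd1+ cells, and the groups did not overlap. Tnfrsf9 was at 83, 60.9 and 67 CPM in Pdcd1- and 179.8, 226 and 285 CPM in Pdcd1+ cells, again without overlap. The differences were 1.82 ± 0.28 (edgeR adjusted p = 0.00021) for Tnfsf4 and 1.56 ± 0.23 (edgeR adjusted p = 0.00016) for Tnfrsf9. The call of Tnfrsf9 held under every alternative fitted, while that of Tnfsf4 was lost when cells were thinned before the classes were set (0.51, adjusted p = 0.665). The call of Tnfsf4 was also lost without the block by library.

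Icos, Cd27 and Tnfrsf4 rose less in Pdcd1+ CD8 T cells. Icos was at 293, 186 and 205 CPM in Pdcd1- and 341, 431 and 436 CPM in Pdcd1+ cells, a difference of 0.69 ± 0.15 (edgeR adjusted p = 0.00478). Cd27 was at 401, 351 and 375 CPM in Pdcd1- and 442, 529 and 628 CPM in Pdcd1+ cells, a difference of 0.33 ± 0.09 (edgeR adjusted p = 0.0215). Neither gene's groups overlapped, and in both replicate 1 had the smallest difference. Tnfrsf4 was at 183, 53.6 and 73.6 CPM in Pdcd1- and 196, 146 and 202 CPM in Pdcd1+ cells, where the Pdcd1- value of replicate 1 lay among the Pdcd1+ values, and the difference was 0.79 ± 0.22 (edgeR adjusted p = 0.0211). None of these 3 calls passed without replicate 2 or without replicate 3. In those fits 404 of 10560 and 362 of 10398 genes were called, against 1485 of 10739 with all libraries. The adjusted p was 0.167, 0.226 and 0.225 for Icos, Cd27 and Tnfrsf4 without replicate 2, and 0.144, 0.437 and 0.394 without replicate 3. Without replicate 1 the log2 differences were 0.95, 0.47 and 1.26, and at equal depth the adjusted p of Tnfrsf4 was 0.622.

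Of the other genes in CD8 T cells, Tnfrsf18 was at 182, 248 and 262 CPM in Pdcd1- and 179, 245 and 257 CPM in Pdcd1+ cells, log2 ratios of -0.03, -0.02 and -0.03. On the fitted scale, which also carries the TMM scaling of each sum, it was not called (adjusted p = 0.263), and it was called lower without replicate 1 (adjusted p = 0.0299). Cd28 was at 339, 217 and 242 CPM in Pdcd1- and 354, 319 and 330.0 CPM in Pdcd1+ cells, higher in Pdcd1+ cells of each library, and was called without replicate 1 (adjusted p = 0.0149) but not with it (adjusted p = 0.196). Tnfsf8 was at 60.0, 19.2 and 38.8 CPM in Pdcd1- and 20.1, 33.1 and 35 CPM in Pdcd1+ cells, with the libraries split in direction.

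In CD4 T cells Tnfrsf9, Tnfsf4 and Tnfrsf4 were higher in Pdcd1+ cells. Tnfrsf9 was at 74.1, 46.7 and 45.7 CPM in Pdcd1- and 167, 205 and 205 CPM in Pdcd1+ cells, without overlap, a difference of 1.65 ± 0.23 (edgeR adjusted p = 6.8e-05) that held under every alternative fitted. Tnfsf4 was at 21.1, 6.57 and 2.42 CPM in Pdcd1- and 33.2, 23.8 and 15.1 CPM in Pdcd1+ cells, with the Pdcd1- value of replicate 1 above the Pdcd1+ value of replicate 3, and differed by 1.43 ± 0.32 (edgeR adjusted p = 0.00444). Tnfrsf4 was at 709, 457 and 469 CPM in Pdcd1- and 856, 929 and 1024 CPM in Pdcd1+ cells, without overlap, and differed by 0.66 ± 0.20 (edgeR adjusted p = 0.0323). Without replicate 2 the adjusted p was 0.163 for Tnfsf4 and 0.226 for Tnfrsf4, without replicate 3 it was 0.0509 and 0.391, and DESeq2 gave 0.0872 for Tnfrsf4.

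Icos, Tnfsf8 and Cd27 were not called in CD4 T cells over all libraries, but were called without replicate 1. Icos was at 676, 384 and 400.3 CPM in Pdcd1- and 620.1, 688 and 755 CPM in Pdcd1+ cells, lower with Pdcd1 in replicate 1 and higher in the other 2 libraries. Tnfsf8 was at 391, 228 and 219.7 CPM in Pdcd1- and 427, 418 and 486 CPM in Pdcd1+ cells, and Cd27 at 342, 319.8 and 317 CPM in Pdcd1- and 379.7, 469.7 and 481 CPM in Pdcd1+ cells, both higher with Pdcd1 in all 3. Over all libraries the differences were 0.37 ± 0.15 (edgeR adjusted p = 0.11) for Icos, 0.53 ± 0.23 (edgeR adjusted p = 0.135) for Tnfsf8 and 0.27 ± 0.09 (edgeR adjusted p = 0.052) for Cd27. Without replicate 1 they were 0.69 (adjusted p = 5.98e-07), 0.82 (adjusted p = 0.000398) and 0.39 (adjusted p = 0.000484). Tnfrsf8 differed by 2.48 ± 0.91 (edgeR adjusted p = 0.0747) on 3, 0 and 3 UMIs in Pdcd1- and 10, 7 and 9 UMIs in Pdcd1+ cells. Tnfrsf18, with log2 ratios of 0.33, 0.32 and 0.33, and Cd28 and Cd40lg were not called.

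In Treg cells the differences were not called. Tnfrsf9 was at 287, 449 and 331 CPM in Pdcd1- and 293, 691 and 684 CPM in Pdcd1+ cells, where replicate 1 had a log2 ratio of 0.03 and replicates 2 and 3 were higher with Pdcd1, and the difference was 0.60 ± 0.22 (edgeR adjusted p = 0.313). Tnfsf4 was at 9.44, 2.58 and 3.03 CPM in Pdcd1- and 15.9, 15.8 and 16.5 CPM in Pdcd1+ cells, without overlap, and differed by 2.00 ± 0.54 (edgeR adjusted p = 0.13). The Tnfsf4 values rest on few counts, with 11, 6 and 9 UMIs in Pdcd1- and 18, 80 and 93 UMIs in Pdcd1+ cells. Without replicate 1 these 2 genes were called, with 0.77 (adjusted p = 0.00234) and 2.44 (adjusted p = 0.00946). Icos, at 831, 699 and 662 CPM in Pdcd1- and 649, 721 and 801 CPM in Pdcd1+ cells, and Tnfrsf4, at 1081, 918 and 941 CPM in Pdcd1- and 1073, 1071 and 1248 CPM in Pdcd1+ cells, overlapped between the groups.

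Whether the effect of the split differed between classes was tested directly. None of the 10 genes was called by edgeR or DESeq2 for CD4 T against CD8 T cells, where edgeR called 0.0186% of all genes, or for Treg against CD4 T cells, where it called 0.326%. In each of these 2 tests 2 of the 10 had an unadjusted p under 0.05. Of all 10739 genes, 711 did for CD4 T against CD8 T and 1058 for Treg against CD4 T cells. The smallest adjusted p was that of Tnfrsf9 between Treg and CD4 T cells, where the log2 effect in Treg minus that in CD4 T cells was -1.06 ± 0.31 (edgeR adjusted p = 0.161). Without replicate 1, where 3.45% of all genes were called, this difference was called (-1.20, adjusted p = 0.000977), as were those of Tnfrsf4 (-0.63, adjusted p = 0.00846) and Icos (-0.59, adjusted p = 0.000991).

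Cells just inside and outside the threshold of the split, with 1 Pdcd1 UMI and with none, were compared with cells of 2 UMIs or more, as a description. In CD8 T cells Tnfrsf9 was at 83, 60.9 and 67 CPM without a Pdcd1 UMI, 141, 141 and 136 CPM with 1 and 191, 248 and 319 CPM with 2 or more. In CD4 T cells it was at 74.1, 46.7 and 45.7 CPM without one, 102, 143 and 109 CPM with 1 and 216, 222 and 239 CPM with 2 or more. The order by Pdcd1 count held in every library of both classes. Tnfsf4 in CD8 T cells was at 27, 59.5 and 36.6 CPM with 1 UMI and 88.8, 71.8 and 80.3 CPM with 2 or more. In replicate 1 its level with 1 UMI was below that without, 30.2 CPM, and in the other libraries it was between.

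**Figure D5:**
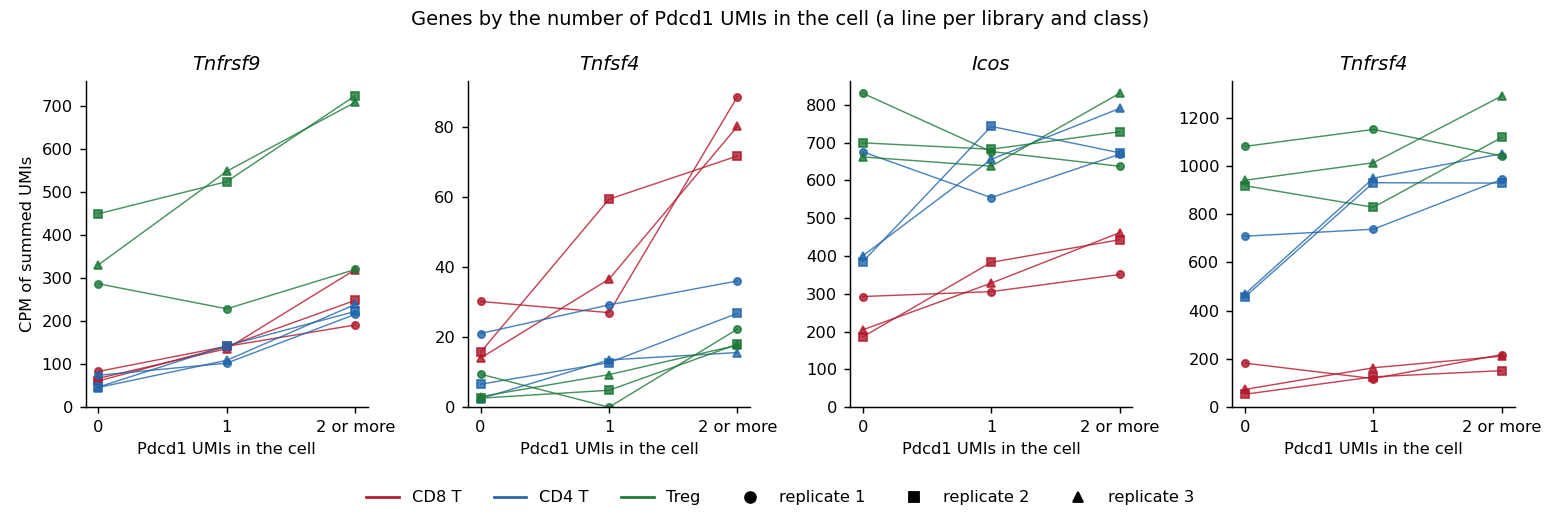
CPM of Tnfrsf9, Tnfsf4, Icos and Tnfrsf4 in cells with 0, 1 and 2 or more Pdcd1 UMIs (lines, 1 per library and T class). Tnfrsf9 rises along the axis in all CD8 T and CD4 T lines, and the Treg line of replicate 1 stays below those of replicates 2 and 3 for Tnfrsf9.

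Within single cells thinned to 2000 UMIs, Tnfrsf4 was found together with Tnfrsf18, Tnfrsf9 and Tnfsf8 in more CD4 T cells than the product of their shares gives. In CD4 T cells Tnfrsf4 and Tnfrsf18 were both present in 25.1% to 32.1% of cells across the libraries, where the product was 21.1% to 27.1%, and Tnfrsf4 and Tnfrsf9 in 9.04% to 11.5%, where it was 5.71% to 8.45%. Of CD4 T cells with Tnfsf8, 74.7% to 80.9% also held Tnfrsf4, against 35.8% to 50.9% of those without Tnfsf8. The excess was not particular to Tnfrsf4. Cd28 and Icos were both present in 26.2% to 37.1% (product, 23.5% to 35.6%) and Tnfrsf9 and Tnfrsf18 in 7.15% to 7.75% (5.74% to 6.13%). Icos with Cd40lg lay below its product in replicate 1. Tnfrsf4 and Tnfrsf9 were both present in 17.9% to 19.5% of Pdcd1+ (15.1% to 18.1%) and 3.42% to 8.35% of Pdcd1- CD4 T cells (1.88% to 5.75%). In Treg cells the pair Tnfrsf4 and Tnfrsf9 was present in 37.5% to 46.6% (product, 34.8% to 41%). In CD8 T cells Tnfrsf9 and Tnfrsf18 went the other way, with 4.9% to 5.5% of cells holding both and a product of 5.57% to 6.52%, lower than the product in each library. Cells of a library share their source, so no test was made.

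At the same depth, a Treg cell held 3.85, 3.79 and 3.85 of the 10 genes on average in the 3 libraries, a CD4 T cell 3.3, 2.76 and 2.83, a CD8 T cell 2.28, 1.89 and 2.01 and a B cell 0.193, 0.176 and 0.185. Cells with 4 or more of the genes made up 60.1%, 61.9% and 63.1% of Treg, 45.4%, 33.1% and 35.5% of CD4 T, 16.8%, 12% and 13% of CD8 T and 0.501%, 0.393% and 0.301% of B cells. With Pdcd1, the share with 4 or more was 56.4%, 52.7% and 60.2% of CD4 T cells, and without it 40.1%, 22.6% and 22.7%, higher with Pdcd1 in each library. In CD8 T cells it was 20.2%, 24.7% and 23.1% and 14.2%, 6.69% and 8.05%, again higher in each.

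Among other genes of the pathway, 17 encode adaptors, NF-kB proteins and survival factors downstream of the TNF receptors. In Treg cells 10 of them were higher and 1 lower than in CD8 T cells (of all genes, 11.1% and 8.38%), and 5 were higher and 1 lower than in CD4 T cells (of all genes, 4.23% and 3.45%). Between CD4 T and CD8 T cells edgeR called none, DESeq2 called 1 and 4 had an unadjusted p under 0.05. Of all genes, 3250 of 12073 had an unadjusted p under 0.05 there, so the count of 4 was near the background. The median log2 fold change of the list was 0.10 for CD4 T over CD8 T, 0.21 for Treg over CD4 T, 0.44 for Treg over CD8 T and 0.03 for B over T cells, and -0.14, -0.07 and -0.01 for Pdcd1+ over Pdcd1- CD8 T, CD4 T and Treg cells, where the medians over all genes tested lay between -0.02 and 0.00. Rel, an NF-kB subunit, was above CD8 T cells by 0.87 ± 0.16 (edgeR adjusted p = 0.00209) and Nfkb1 by 0.70 ± 0.13 (edgeR adjusted p = 0.00297). Against CD4 T cells Bcl2l1, the gene of the survival protein BCL-XL, was higher in Treg by 0.79 ± 0.12 (edgeR adjusted p = 0.00177, 0.153 without replicate 2 and 0.0636 without replicate 3) and the adaptor Traf3 by 0.47 ± 0.11 (edgeR adjusted p = 0.0259, 0.411 without replicate 2 and 0.182 without replicate 3). The calls of Bcl2l1 and Traf3 were also lost with cells thinned to 2000 UMIs before the classes were set. That of Bcl2l1 was lost with the study's cell filter as well. In B cells 5 of the 17 were higher and 5 lower than in T cells, where 30.6% and 31.1% of all genes were, so the counts were near the background. Among them were Tnfaip3, an inhibitor of NF-kB, at -2.72 ± 0.14 (edgeR adjusted p = 1.08e-08), Rel at 1.88 ± 0.12 (edgeR adjusted p = 5.67e-08) and Bcl2l1 at -1.85 ± 0.12 (edgeR adjusted p = 6.42e-08). With Pdcd1, 1 gene was higher and 5 were lower in CD8 T cells (of all genes, 6.34% and 7.49%), and 1 higher and 4 lower in CD4 T cells (of all genes, 7.63% and 8.13%). Bcl2l1 was the higher gene, by 0.72 ± 0.21 (edgeR adjusted p = 0.0269, 0.466 without replicate 2 and 0.0655 without replicate 3) in CD8 T and 1.27 ± 0.19 (edgeR adjusted p = 0.000139) in CD4 T cells. Map3k14, the kinase NIK, was lower with Pdcd1, at -0.66 ± 0.09 (edgeR adjusted p = 0.000111) in CD8 T and -0.51 ± 0.08 (edgeR adjusted p = 0.000282, 0.102 without replicate 3) in CD4 T cells. Nfkbia, an inhibitor of NF-kB, was at -0.52 ± 0.12 (edgeR adjusted p = 0.00776, 0.302 without replicate 3) in CD8 T and -0.56 ± 0.12 (edgeR adjusted p = 0.00275, 0.0549 without replicate 2 and 0.0741 without replicate 3) in CD4 T cells. With cells thinned to 2000 UMIs before the classes were set, the calls of Bcl2l1 and Map3k14 by Pdcd1 were lost in both classes. The call of Nfkbia was then lost in CD8 T cells. That of Bcl2l1 in CD8 T cells was also lost with the study's cell filter and without T cells carrying B-cell or macrophage UMIs. In Treg cells neither tool called a gene of this list by Pdcd1, and 3 had an unadjusted p under 0.05 (of all genes, 1064 of 10739).

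Of 15 genes that carry signals from CD28 and ICOS, 5 were higher and 1 lower in CD4 T than in CD8 T cells (of all genes, 7.7% and 6.44%), 2 were higher and 5 lower in Treg than in CD4 T cells (4.23% and 3.45%), and 3 higher and 5 lower in Treg than in CD8 T cells (11.1% and 8.38%). Malt1, a protease on the way to NF-kB, was higher in CD4 T than in CD8 T cells by 0.93 ± 0.07 (edgeR adjusted p = 7.37e-06), and Pik3cd, a PI3 kinase subunit, was lower at -0.55 ± 0.09 (edgeR adjusted p = 0.00161). In Treg cells Prkcq, a kinase of the CD28 pathway, was below CD4 T cells at -0.86 ± 0.10 (edgeR adjusted p = 0.000482) and the transcription factor Nfatc1 at -0.76 ± 0.10 (edgeR adjusted p = 0.00102). The call of Prkcq was lost with cells thinned to 2000 UMIs before the classes were set. The list medians were 0.09 for CD4 T over CD8 T, -0.21 for Treg over CD4 T, -0.09 for Treg over CD8 T and -0.62 for B over T cells, and 0.17, -0.03 and -0.13 for Pdcd1+ over Pdcd1- CD8 T, CD4 T and Treg cells. Against CD8 T cells, Malt1 was higher in Treg by 1.10 ± 0.07 (edgeR adjusted p = 1.48e-06) and the adaptor Grb2 by 0.80 ± 0.07 (edgeR adjusted p = 1.54e-05), and the adaptor Grap2 was lower at -0.94 ± 0.16 (edgeR adjusted p = 0.00177). In B cells 9 were lower and 4 higher (of all genes, 31.1% and 30.6%), with Prkcq at -4.21 ± 0.13 (edgeR adjusted p = 2.71e-10) and the adaptor Lcp2 at -3.56 ± 0.14 (edgeR adjusted p = 1.51e-09). By Pdcd1, 4 were higher and 5 lower in CD8 T cells (of all genes, 6.34% and 7.49%) and 5 higher and 5 lower in CD4 T cells (7.63% and 8.13%). Grap2 was lower with Pdcd1 in all 3 classes, at -0.96 ± 0.07 (edgeR adjusted p = 9.63e-08) in CD8 T, -1.18 ± 0.07 (edgeR adjusted p = 5e-09) in CD4 T and -0.52 ± 0.08 (edgeR adjusted p = 0.00625, 0.334 without replicate 2 and 0.338 without replicate 3) in Treg cells. The difference between the effects in Treg and CD4 T cells was 0.66 ± 0.11 (edgeR adjusted p = 0.0107, 0.822 without replicate 2 and 0.709 without replicate 3), and with the study's cell filter it was -0.19 (adjusted p = 0.898). This call was also lost with thinned cells and without T cells carrying B-cell or macrophage UMIs. Prkcq was the other gene called in Treg cells, at -0.50 ± 0.11 (edgeR adjusted p = 0.0483, 0.451 without replicate 2 and 0.683 without replicate 3). Its call was kept in 4 and lost in 9 of the alternative fits, among them that without cells with high doublet scores. With cells thinned to 2000 UMIs before the classes were set, the calls of both Grap2 and Prkcq in Treg cells were lost. Lcp2 was higher with Pdcd1 in CD8 T cells by 0.61 ± 0.12 (edgeR adjusted p = 0.00159, 0.067 without replicate 2) and Nfatc1 in CD4 T cells by 0.74 ± 0.12 (edgeR adjusted p = 0.000385). The call of Lcp2 was also lost with the study's cell filter and with cells thinned to 2000 UMIs before the classes were set.

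Among 19 other costimulatory receptors and TNF ligands, of which 18 were tested between classes, 5 were higher and 4 lower in CD4 T than in CD8 T cells (of all genes, 7.7% and 6.44%), 3 higher and 2 lower in Treg than in CD4 T cells (4.23% and 3.45%), and 7 higher and 3 lower in Treg than in CD8 T cells (11.1% and 8.38%). Crtam, a receptor of activated CD8 T cells, was at -2.44 ± 0.30 (edgeR adjusted p = 0.000243) for CD4 T over CD8 T and -2.98 ± 0.36 (edgeR adjusted p = 0.000117) for Treg over CD8 T cells. Tnfsf11, the ligand RANKL, was higher in CD4 T than in CD8 T cells by 2.39 ± 0.32 (edgeR adjusted p = 0.000427) and lower in Treg than in CD4 T cells at -1.99 ± 0.32 (edgeR adjusted p = 0.00306), the same directions as its relatives Tnfsf8 and Cd40lg. Tnfrsf25, the gene of DR3, was higher by 1.59 ± 0.20 (edgeR adjusted p = 0.000301) in CD4 T and by 1.79 ± 0.21 (edgeR adjusted p = 9.6e-05) in Treg than in CD8 T cells. Fasl, the death ligand, was lower in Treg than in CD4 T cells at -1.45 ± 0.13 (edgeR adjusted p = 5.49e-05) and than in CD8 T cells at -1.85 ± 0.13 (edgeR adjusted p = 2.85e-06), and Slamf1 was higher in Treg than in CD4 T cells by 0.69 ± 0.10 (edgeR adjusted p = 0.00204, 0.145 without replicate 2). In B cells 14 were lower and 2 higher (of all genes, 31.1% and 30.6%), with Cd6 at -5.04 ± 0.14 (edgeR adjusted p = 1.88e-10), Cd5 at -4.76 ± 0.13 (edgeR adjusted p = 1.06e-10) and Fasl at -4.11 ± 0.16 (edgeR adjusted p = 1.27e-09). Of 17 tested by Pdcd1, 6 were higher and none lower in CD8 T cells (of all genes, 6.34% and 7.49%), and 7 higher and 1 lower in CD4 T cells (7.63% and 8.13%). Tnfsf10, the ligand TRAIL, rose in Pdcd1+ CD8 T cells by 0.79 ± 0.19 (edgeR adjusted p = 0.00876, 0.131 without replicate 2 and 0.114 without replicate 3), Fasl by 0.74 ± 0.11 (edgeR adjusted p = 0.00023) and Cd5 by 0.68 ± 0.16 (edgeR adjusted p = 0.00713, 0.0958 without replicate 2 and 0.13 without replicate 3). The call of Cd5 was also lost with cells thinned to 2000 UMIs before the classes were set, and that of Tnfsf10 with the study's cell filter. In Pdcd1+ CD4 T cells Crtam rose by 1.23 ± 0.35 (edgeR adjusted p = 0.02, 0.132 without replicate 2 and 0.149 without replicate 3), Tnfrsf1b, a TNF receptor, by 0.73 ± 0.11 (edgeR adjusted p = 0.000195) and Tnf by 0.72 ± 0.22 (edgeR adjusted p = 0.0288, 0.337 without replicate 2 and 0.13 without replicate 3). The call of Crtam was also lost with the study's cell filter. The list medians were 0.29 for CD4 T over CD8 T, 0.18 for Treg over CD4 T, 0.26 for Treg over CD8 T and -2.30 for B over T cells, and 0.26, 0.33 and 0.01 for Pdcd1+ over Pdcd1- CD8 T, CD4 T and Treg cells. In Treg cells neither tool called a gene of this list by Pdcd1, and 4 had an unadjusted p under 0.05 (of all genes, 1064 of 10739).

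Over the 21 sums of the 6 T subclasses and B cells in 3 libraries, the genes whose log2(CPM + 1) correlated most with each of the 10 were named by Pearson's r, as a description, since the sums share libraries and the step between B and T cells weighs on every value. For Cd28 they were Cd3d (0.989), Cd3g (0.988) and Skap1 (0.988), which are T-cell receptor parts and an adaptor. For Tnfrsf4 they were Tiam1 (0.981), Izumo1r (0.974) and Gata3 (0.972), and for Tnfrsf18 Gata3 (0.974), Il18r1 (0.972) and Icos (0.970). For Tnfrsf9 they were Arrdc1 (0.970), 6330403K07Rik (0.962) and Ikzf2 (0.962), and for Icos Ldlrad4 (0.990), Cd5 (0.989) and Cxcr3 (0.984). For Tnfsf8 they were Tmem65 (0.973), Bag3 (0.966) and A630023P12Rik (0.961), for Cd40lg Mpzl3 (0.900), St6galnac1 (0.894) and Nav2 (0.893) and for Tnfsf4 Ptpn3 (0.931), Plod2 (0.921) and Sytl3 (0.916). For Cd27 they were Rinl (0.992), Cd3e (0.989) and Cd96 (0.989), of which Cd3e is part of the class rules, and for Tnfrsf8, with few counts, Khsrp (0.799), Tmem237 (0.791) and Hsd17b7 (0.791). Among the 10 genes themselves, the closest to Tnfrsf4 was Icos (0.937), to Tnfsf8 Tnfrsf4 (0.909) and to Tnfsf4 Cd27 (0.688).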

How the data were processed

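Live CD45+ islet cells of female NOD mice were sequenced in 3 droplet libraries, 1 group. The authors deposited 1 matrix of raw UMI counts per gene and cell for each library, made with Cell Ranger 6.0.1 on mm10 per the labels. No normalization had been applied, and no column of another sample was present (0). The median depth per class and library is given in the report. The 10 genes and the other lists were chosen with earlier results of these data known.

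Cells with at least 1000 UMIs and under 10% mitochondrial UMIs were classed by raw counts of the defining genes, and counts were summed per class and library (12 sums) and per T class and Pdcd1 group (18 sums, each of at least 10 cells). Sums were tested with edgeR 4.0.16 in R 4.3.3 (filterByExpr, TMM, quasi-likelihood test, library as a block, Benjamini-Hochberg adjustment, threshold 0.05). The labels number the libraries, and deviations of sums of the same library from their class means correlated with each other (r of 0.352 to 0.788 over 18 pairs of class sums and 0.304 to 0.708 over 45 pairs of subclass sums), and the classes of a library come from the same pooled mice. Each library is a pool of mice per the methods of the study. With library as a block, p-values rest on how differences between sums of the same pool vary over 3 pools. All sums of a fit share 1 estimate of this spread for a gene. Shares were computed after thinning cells to 2000 UMIs, and the limit for a share of 0 is 3 counts, for counting error only. Promoter sequences and motif matches came from RefSeq. The edgeR fits were tested on simulated sums, for Treg over CD4 T cells and for Pdcd1+ over Pdcd1- CD8 T cells. The simulated sums held no effect of library on single genes, so the block by library was not tested. The other contrasts and DESeq2 were not tested in this way.

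All 10 genes are named in every contrast, and of each other list up to 3 called genes with the largest change per contrast. Genes most like each of the 10 were taken by Pearson's r of log2(CPM + 1). No doublets were removed in the main results. The alternatives were DESeq2 1.42.0 and its size factors, no filter on low counts, no block, each library left out, the study's cell filter (200 to 5000 genes and under 5% mitochondrial reads, with a floor of 5% for ribosomal reads and a limit of 6000 UMIs), removal of the 7.6% of cells with the highest Scrublet scores (Scanpy 1.11.5), removal of T cells with UMIs of other cells, thinning, a split at 2 Pdcd1 UMIs and the fit without B-cell sums. Python 3.11.15 with NumPy 2.4.6, SciPy 1.17.1, pandas 2.3.3 and Matplotlib 3.10.9 was used.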

Additional observations from a re-analysis of the deposited data

Results flagged for a closer look

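Grap2, which encodes an adaptor of CD28 and T-cell receptor signalling, was lower in Pdcd1+ cells by a log2 fold change of -1.18 in CD4 T cells and of -0.52 in Treg cells. The difference of these effects, Treg minus CD4 T, was 0.66 ± 0.11 (edgeR adjusted p = 0.0107). It was called without replicate 1 but not without replicate 2 (adjusted p = 0.822) or without replicate 3 (adjusted p = 0.709), and with the study's cell filter it was -0.19 (adjusted p = 0.898). The call was also lost without T cells carrying B-cell or macrophage UMIs, with thinned cells and without the block by library. It was kept in 7 and lost in 6 of the alternative fits. None of the 10 costimulatory genes themselves passed such a test in the main edgeR fit or in DESeq2. With no filter on low counts some of them did, as given below.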

How the results depend on the processing

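With all settings as in the report the contrasts called 1707 genes for CD4 T over CD8 T, 928 for Treg over CD4 T, 2353 for Treg over CD8 T, 7445 for B over T, 1485 for Pdcd1 in CD8 T cells, 1692 for Pdcd1 in CD4 T cells, 63 for Pdcd1 in Treg cells, 2 for the CD4 T minus CD8 T effect and 35 for the Treg minus CD4 T effect. These fits tested 12073 genes between classes and 10739 by Pdcd1. Each count below is out of the genes that its own fit tested. Thinned cells left 7645 and 4617 genes to test, the study's cell filter 9360 and 7131, and no filter on low counts 20577 and 19852. Leaving out a replicate left 12016 to 12200 between classes and 10398 to 11466 by Pdcd1. Thinning cells before the classes were set called 660 for CD4 T over CD8 T, 437 for Treg over CD4 T, 839 for Treg over CD8 T, 4043 for B over T, 207 for Pdcd1 in CD8 T cells, 560 for Pdcd1 in CD4 T cells, 25 for Pdcd1 in Treg cells, 7 for the CD4 T minus CD8 T effect and 11 for the Treg minus CD4 T effect, and among the 10 genes 3 for Pdcd1 in CD8 T cells (from 5), 6 for Pdcd1 in CD4 T cells (from 3) and 1 for Pdcd1 in Treg cells (from 0). The fit without the replicate block called 548 for CD4 T over CD8 T, 124 for Treg over CD4 T, 954 for Treg over CD8 T, 194 for Pdcd1 in CD8 T cells, 182 for Pdcd1 in CD4 T cells, 1 for Pdcd1 in Treg cells, 1 for the CD4 T minus CD8 T effect and 0 for the Treg minus CD4 T effect, and among the 10 genes 1 for Treg over CD4 T (from 6), 1 for Pdcd1 in CD8 T cells (from 5) and 1 for Pdcd1 in CD4 T cells (from 3). No filter on low counts called 293 for Pdcd1 in Treg cells, 174 for the CD4 T minus CD8 T effect and 373 for the Treg minus CD4 T effect, and among the 10 genes 7 for Pdcd1 in CD4 T cells (from 3), 2 for Pdcd1 in Treg cells (from 0), 1 for the CD4 T minus CD8 T effect (from 0) and 3 for the Treg minus CD4 T effect (from 0). The study's cell filter called 674 for CD4 T over CD8 T, 1324 for Treg over CD8 T, 752 for Pdcd1 in CD8 T cells, 26 for Pdcd1 in Treg cells and 12 for the CD4 T minus CD8 T effect, and among the 10 genes 6 for Pdcd1 in CD4 T cells (from 3). DESeq2 called 111 for Pdcd1 in Treg cells, 26 for the CD4 T minus CD8 T effect and 129 for the Treg minus CD4 T effect. Leaving out cells with high doublet scores called 38 for Pdcd1 in Treg cells and 0 for the CD4 T minus CD8 T effect. Leaving out the B-cell sums called 1551 for Treg over CD4 T. A split at 2 Pdcd1 UMIs called among the 10 genes 1 for Pdcd1 in Treg cells (from 0). Leaving out T cells with B-cell or macrophage UMIs called 1 for the CD4 T minus CD8 T effect. Leaving out each replicate in turn called 566 to 2177 for CD4 T over CD8 T, 145 to 1546 for Treg over CD4 T, 963 to 3021 for Treg over CD8 T, 362 to 1791 for Pdcd1 in CD8 T cells, 339 to 2309 for Pdcd1 in CD4 T cells, 1 to 235 for Pdcd1 in Treg cells, 0 to 116 for the CD4 T minus CD8 T effect and 0 to 396 for the Treg minus CD4 T effect, and among the 10 genes 2 to 8 for Treg over CD4 T, 2 to 7 for Pdcd1 in CD8 T cells, 1 to 6 for Pdcd1 in CD4 T cells, 0 to 2 for Pdcd1 in Treg cells and 0 to 3 for the Treg minus CD4 T effect.

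Of the 29 calls of the 10 genes between classes, 20 held under every alternative, and of the 8 by Pdcd1, 2. Among 1132 refits of single contrasts of these genes, 49 lost a call, 55 gained one and 0 called values changed sign. Of 240 share values at another depth or without a library or doublets, 80 moved by more than 1 SD. Leaving out 1 of 3 libraries cannot move their mean by more than 1 SD. All of these moves thus came from another depth or from leaving out cells with high doublet scores. Among 825 refits of named genes of the other lists, 709 kept their call, 115 lost the call and 1 changed sign: Grap2 for the Treg minus CD4 T effect, at -0.19 with the study's cell filter. The limits are the 3 libraries, of which replicate 1 was the shallowest and had the lowest Pdcd1 ratios of 7 genes, the pooled mice, and classes set by 1 or 2 UMIs, so that cells of low depth can fall outside their class. Depth limits Tnfrsf8 and Cd40lg most. The block for replicate is part of the design, since classes of a library come from the same pooled mice, and the fit without it changed calls as given here. The causes of these changes were not tested, apart from fewer samples or fewer counts where the setting itself removes them. The fit without the 59 cells that met both rules, which moved no count of calls by more than 1.5 times, and the ratios of single libraries were added after seeing the data.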

Other observations

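The partners of the 10 genes, that is ligands of the receptors, the CD40 ligand's receptor and Ctla4, which shares its ligands with CD28, were mostly found at low levels in T cells and partly in B cells. Of 8 partner genes, 7 were tested between classes, and in B cells 4 were higher and 2 lower than in T cells, where 30.6% and 31.1% of all genes were. Cd40, the receptor of CD40 ligand, was at 28.2, 82.3 and 83 CPM in B cells of replicates 1, 2 and 3 and at 8.02, 9.16 and 9.21 CPM in CD4 T cells, a difference of B from T cells of 3.09 ± 0.15 (edgeR adjusted p = 6.26e-09). Cd86, a ligand of CD28, was at 160.0, 297 and 297 CPM in B cells and 22.7, 27.7 and 20.5 CPM in CD8 T cells, with a difference of 2.81 ± 0.15 (edgeR adjusted p = 1.87e-08). Both were lowest in B cells of replicate 1. Icosl, the ligand of ICOS, was at 13.1, 21.1 and 19.5 CPM in B cells and 2.96, 3.88 and 2.38 CPM in CD4 T cells. The ligands of CD27, 4-1BB and GITR were scarce in all 4 classes: Cd70 did not exceed 1.92 CPM, Tnfsf9 5.64 CPM and Tnfsf18 0.284 CPM in any library.

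Ctla4, a receptor that is neither ligand nor receptor of the 10 genes' products and was also a Treg marker here, was at 193, 114 and 117 CPM in CD8 T, 342, 232 and 218 CPM in CD4 T and 682, 513 and 544 CPM in Treg cells. It was the partner gene called between CD4 T and CD8 T cells (0.81 ± 0.12, edgeR adjusted p = 0.000965) and between Treg and CD4 T cells (1.08 ± 0.12, edgeR adjusted p = 0.000304), and 3 partners were higher in Treg than in CD8 T cells: Ctla4 (1.89 ± 0.12, edgeR adjusted p = 1.68e-06), Cd40 (1.26 ± 0.27, edgeR adjusted p = 0.00568, 0.144 without replicate 2 and 0.0779 without replicate 3) and Cd86 (1.22 ± 0.23, edgeR adjusted p = 0.00311, 0.0814 without replicate 2 and 0.0818 without replicate 3). Cd86 in Treg cells was at 25.6, 91.8 and 68.2 CPM. Treg cells also held the most B-cell RNA of the T classes in these libraries. Without T cells carrying B-cell or macrophage UMIs, the call of Cd40 was lost and that of Cd86 was kept. Both calls were lost with the study's cell filter. That of Cd40 was also lost with cells thinned to 2000 UMIs before the classes were set. The part of B-cell RNA in the values of Cd40 and Cd86 was not tested beyond these fits. In Pdcd1+ cells Ctla4 was higher by 0.60 ± 0.16 (edgeR adjusted p = 0.0173, 0.374 without replicate 2 and 0.149 without replicate 3) in CD8 T and 0.57 ± 0.15 (edgeR adjusted p = 0.0151, 0.243 without replicate 2 and 0.329 without replicate 3) in CD4 T cells, and Cd80 by 1.91 ± 0.47 (edgeR adjusted p = 0.01, 0.181 without replicate 2 and 0.155 without replicate 3) in CD8 T cells. The call of Ctla4 in CD8 T cells was also lost with cells thinned to 2000 UMIs before the classes were set. That of Cd80 was kept in 8 and lost in 3 of the alternative fits that tested it. In Treg cells neither edgeR nor DESeq2 called a partner by Pdcd1, and none had an unadjusted p under 0.05 (of all genes, 1064 of 10739). In B cells Ctla4 was lower than in T cells (-4.32 ± 0.14, edgeR adjusted p = 3.39e-10).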
